A study of Homo sapiens with 6 samples.

Results

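The EGR, NR4A and IER early response genes were taken as the rows of the read count table with the symbols EGR1, EGR2, EGR3, NR4A1, NR4A2, NR4A3, IER2, IER3 and IER5, and all 9 were found among 23250 gene symbols. Their transcripts were counted by RNA sequencing of OCI-LY1, an established line of diffuse large B cell lymphoma (DLBCL), a tumour of mature B cells. In all 6 libraries the cells had received siRNA against BCL6, the transcriptional repressor of germinal centre B cells, and BCL6 was then put back by ectopic expression. Of these, 3 libraries came from cells given wild-type BCL6 (the wild-type rescue) and 3 from cells given BCL6 mutated in RD2, its second repression domain (the mutant rescue). The labels name the growth medium (IMDM with serum and HEPES) but no stimulation of the antigen receptor, and no library lacked a rescue. They do not say what drives the introduced BCL6 or whether the libraries came from separate cultures, so p-values reflect the spread among these 6 libraries alone, and that spread may be technical.

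Early response genes are transcribed within minutes of a signal such as antigen receptor engagement, without new protein synthesis, and many are turned off again soon after. EGR proteins are zinc finger transcription factors that are induced through the ERK kinase cascade. NR4A proteins are orphan nuclear receptors that respond strongly to calcium and antigen receptor signals, for which NR4A1 (Nur77) is widely used as a reporter in lymphocytes. IER genes encode small proteins of the immediate early response, of which IER2 and IER5 are related in sequence and IER3 is tied to survival and ERK signalling.

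The members split in direction between the rescues. EGR1 fell 1.89-fold in the mutant rescue, and the few reads of EGR2 and EGR3 were nearly all in the wild-type rescue. IER5, the most abundant member, rose 1.64-fold. NR4A1, IER2 and IER3 did not pass the test, and NR4A2 and NR4A3 were too low to be tested. In such bulk RNA, fewer cells with a transcript and less of it in each cell cannot be told apart. Fold changes throughout are mutant rescue relative to wild-type rescue, levels are TMM-scaled CPM (counts scaled to effective library size) as mean ± SD over n = 3 libraries, and called means an adjusted p under 0.05 (edgeR quasi-likelihood test, Benjamini-Hochberg over all tested genes).

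Promoter sequence is shown first for EGR1 and EGR2, which had fewer reads in the mutant rescue, and for IER5, which had more. The RefSeq promoter table (GRCh38.p14) was used for 6 of the 9 members: EGR1, EGR2, NR4A1, NR4A3, IER2 and IER5. Promoters of EGR3, NR4A2 and IER3 were not searched. Each line gives the 250 bases upstream of a start, 5′ to 3′ on the gene's strand. EGR1 is at chr5:138465229-138465478 on the + strand, EGR2 at chr10:62816367-62816616 on the - strand and IER5 at chr1:181088450-181088699 on the + strand. Capitals mark matches to the CArG box, the binding sequence of serum response factor, and to TGACG, the core of the cyclic AMP response element, on either strand.
EGR1: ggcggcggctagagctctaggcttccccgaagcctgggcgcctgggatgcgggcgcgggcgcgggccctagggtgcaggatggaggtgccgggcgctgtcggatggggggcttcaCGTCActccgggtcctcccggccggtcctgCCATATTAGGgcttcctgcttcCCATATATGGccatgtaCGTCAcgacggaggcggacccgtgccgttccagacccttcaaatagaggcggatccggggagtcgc
EGR2: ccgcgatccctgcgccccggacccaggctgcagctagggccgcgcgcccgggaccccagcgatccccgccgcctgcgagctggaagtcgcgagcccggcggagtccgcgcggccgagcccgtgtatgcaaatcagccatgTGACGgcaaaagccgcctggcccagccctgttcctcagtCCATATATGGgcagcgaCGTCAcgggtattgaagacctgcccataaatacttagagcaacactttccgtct
IER5: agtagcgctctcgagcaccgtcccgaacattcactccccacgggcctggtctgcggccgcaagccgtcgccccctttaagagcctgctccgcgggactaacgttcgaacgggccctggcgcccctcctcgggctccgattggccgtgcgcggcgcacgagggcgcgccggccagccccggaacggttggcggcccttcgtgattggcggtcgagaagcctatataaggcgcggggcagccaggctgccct
The EGR1 window held 2 CArG boxes, CCATATTAGG from 105 to 96 and CCATATATGG from 83 to 74 bases before the start, and 2 matches to TGACG. The EGR2 window held 1 CArG box, CCATATATGG from 71 to 62 bases before the start, and 2 matches to TGACG. EGR2 has 3 starts in the table, and the one shown was chosen because it held these matches, which the other 2 lacked. A CArG box was found in 1.16% and TGACG in 21.2% of 35116 promoter windows of this length. The NR4A3 window held 4 matches to TGACG and the IER2 window 1, with no CArG box in either, and neither motif was found in the IER5 window or in the 2 NR4A1 windows. TGACGTCA (1.65% of windows), the EGR sites GCGTGGGCG (0.72%) and GCGGGGGCG (4.72%) and the BCL6 site TTCCTAGAA (0.313%) were searched on both strands and not found in any window of these 6 members. TTCNNNGAA, the half-site spacing shared by BCL6 and STAT sites (6.57% of windows), was found once, in EGR1, from 228 to 220 bases before the start. A match is a description of letters and not of binding, and a window without one says nothing about the factor.

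Library totals ranged from 26298456 to 27574867 counts, at which 3 counts correspond to 0.109 to 0.114 CPM before TMM scaling (counting error only). Of 23250 gene symbols 12406 passed the filter on low counts and were tested, and 70.1% of them were called, 35.4% higher and 34.8% lower in the mutant rescue. BCL6, the gene targeted by the siRNA and put back, had 19069, 16998 and 18789 counts with wild-type BCL6 and 14166, 13726 and 13827 with the mutant. The level was thus lower with the mutant, by 1.31-fold, and its part in the results below was not tested. Reads of endogenous and introduced BCL6 are summed in this row of the table. All 8 B cell markers examined, BCL6 among them, were tested and called, 4 higher and 4 lower in the mutant rescue. The 8 summed to 4644 to 4693 CPM in the wild-type and 4027 to 4072 CPM in the mutant libraries. Of 6 T cell markers CD3E, CD2 and TRAT1 had 0 counts in every library, and the sum of the list, 3.75 to 4.29 CPM in the wild-type and 3.17 to 4.17 CPM in the mutant libraries, came mostly from CD247 (4.03 ± 0.293 against 3.73 ± 0.517 CPM; edgeR, adjusted p = 0.442). Of 7 myeloid markers S100A8 and S100A9 had 0 counts in every library. The 7 summed to 0.110 to 0.306 CPM in the wild-type and 0.484 to 0.821 CPM in the mutant rescue. The second mutant library stood farther from the other 2 of its group (chi-square per degree of freedom 5.47 and 4.36) than these did from each other (1.75), and results that rest on it are also given without it.

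Of the 9 members 5 were tested, and each of them had at least 14 counts in every library. Of these, 1 was called higher and 1 lower, that is 2 of 5 against 70.1% of all tested genes. The same 2 passed when the test required more than a 1.2-fold change (edgeR glmTreat), as did 37% of all tested genes. Their groups were also the 2 of 5 that did not overlap, against 72.4% of all tested genes. Their median log2 fold change was -0.07 and that of all tested genes was 0.01.

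**Figure D1:**
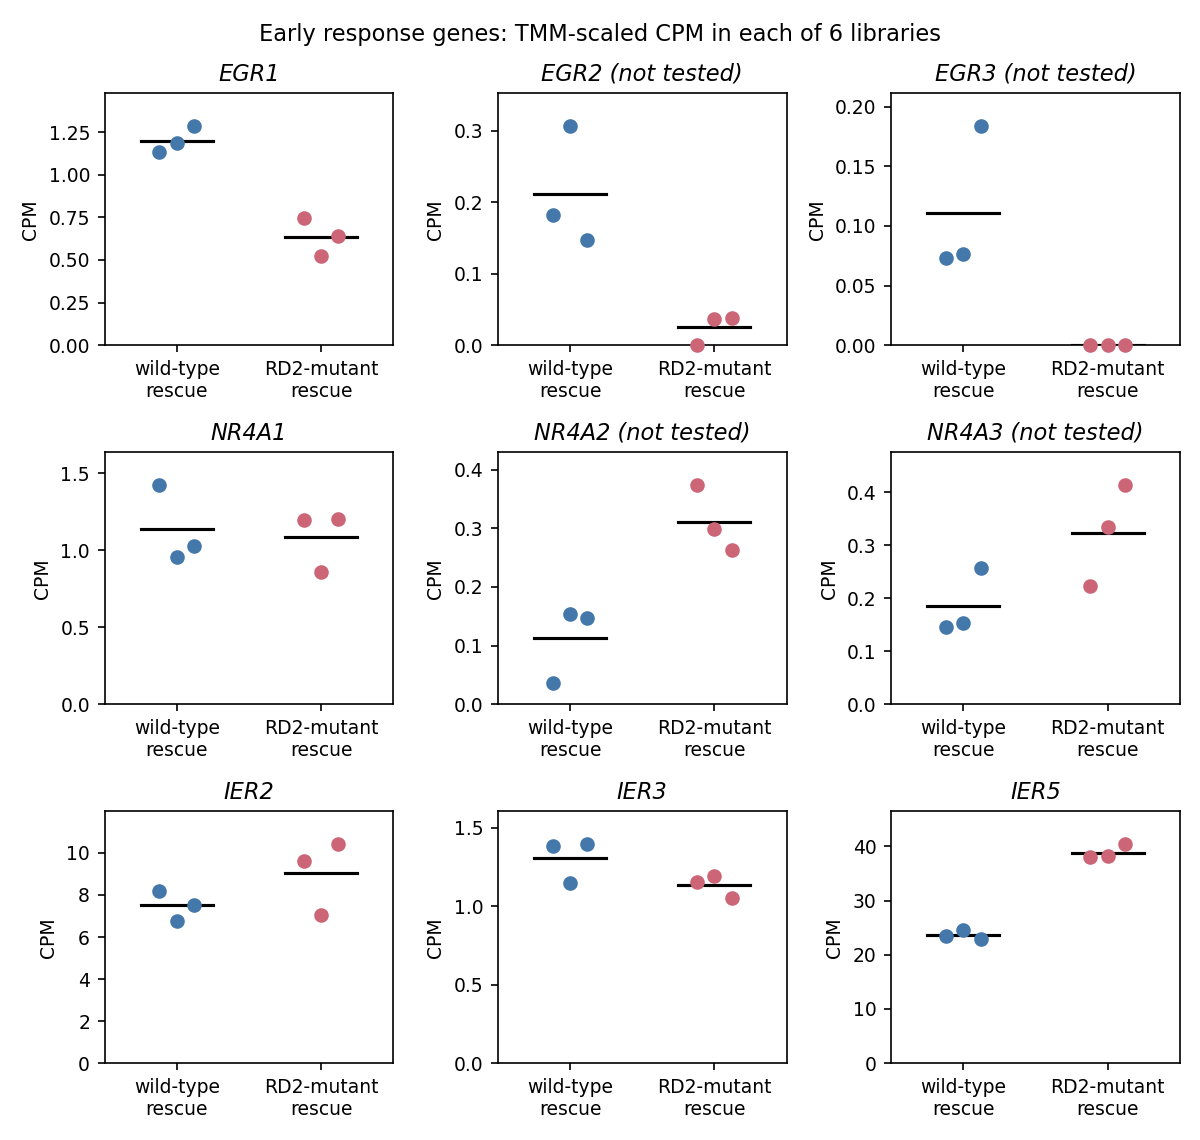
TMM-scaled CPM (vertical axes, each from 0) of the 9 members in each library, with wild-type rescue in blue, mutant rescue in red and a bar at the mean of 3 libraries. The groups do not overlap for EGR1, EGR2, EGR3, NR4A2 and IER5, and EGR3 had 0 counts in all 3 mutant libraries. Of these only EGR1 and IER5 were tested, and groups did not overlap for 72.4% of all tested genes. EGR2, EGR3 and NR4A2 had no more than 10 counts in any library.

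EGR1, the best known early growth response factor, was counted 31, 31 and 35 times in the wild-type libraries and 20, 14 and 17 times in the mutant libraries. Every mutant library lay below every wild-type library, although no library held more than 35 reads. The level went from 1.2 ± 0.0774 to 0.636 ± 0.113 CPM, a log2 fold change of -0.91 (SE 0.24, 95% interval -1.40 to -0.42; edgeR, adjusted p = 0.00177). Leaving out each library in turn gave log2 fold changes between -1.04 and -0.79, with adjusted p between 0.00205 and 0.0119.

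EGR2, a related factor with roles in lymphocyte restraint, was counted 5, 8 and 4 times in the wild-type libraries and 0, 1 and 1 times in the mutant libraries. The groups did not overlap, with 17 counts in all against 2. The ratio of the scaled counts was 8.44 in favour of the wild-type rescue, with a 95% exact binomial interval of 2.0 to 75.3 that covers counting error only. EGR3, which acts with EGR2 in lymphocytes, was counted 2, 2 and 5 times in the wild-type libraries and 0 times in each mutant library. With the mutant group set to a floor of 3 counts, the ratio of the scaled counts was 2.98 in favour of the wild-type rescue. This value ignores counting error in the wild-type reads and is not a confidence limit. Both genes were left out of the test by the filter, and when every gene with a count was fitted, EGR2 and EGR3 were called lower (edgeR, adjusted p = 0.00335 and 0.00687). In that fit 4540 of 17426 genes were called lower. EGR3 entered it through wild-type reads alone, so only a lower call was possible. Its p-values are also not on the scale of the main fit. At a nearly unchanged fold change the adjusted p of IER5 went from 1.03e-10 to 2.34e-35, and that of IER3 from 0.360 to 0.437 (edgeR).

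Summed over the 3 EGR genes, the wild-type libraries held 38, 41 and 44 counts and the mutant libraries 20, 15 and 18. EGR1 made up most of this sum in both groups. The summed level was 1.52 ± 0.121 CPM in the wild-type and 0.661 ± 0.0948 CPM in the mutant rescue, 2.31-fold lower. EGR4, the remaining gene of the family, had 0 counts in every library.

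NR4A1, the most abundant of the nuclear receptor genes here, was counted 39, 25 and 28 times in the wild-type libraries and 32, 23 and 32 times in the mutant libraries. The groups overlapped throughout, and the highest and the lowest library were in different groups. The level was 1.14 ± 0.251 CPM against 1.08 ± 0.197 CPM, and the log2 fold change of -0.07 did not pass the test (95% interval -0.55 to 0.41; edgeR, adjusted p = 0.796). The interval therefore allows changes of either sign, and the sign turned when the first wild-type library (log2 0.13) or the second mutant library (0.07) was left out.

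NR4A2 (Nurr1) was counted 1, 4 and 4 times in the wild-type libraries and 10, 8 and 7 times in the mutant libraries. Its groups did not overlap, but no library held more than 10 reads. NR4A3 (NOR1) had 4, 4 and 7 counts against 6, 9 and 11, and its groups overlapped. The levels were 0.112 ± 0.0656 and 0.311 ± 0.0563 CPM for NR4A2 (2.78-fold higher in the mutant rescue), and 0.185 ± 0.0620 and 0.324 ± 0.0952 CPM for NR4A3 (1.75-fold higher). Neither was tested. In the fit without the filter NR4A2 was called higher (log2 1.44; edgeR, adjusted p = 0.0254) and NR4A3 was not called (log2 0.78; edgeR, adjusted p = 0.194). That fit called 4554 of 17426 genes higher. The 3 NR4A genes together had 44, 33 and 39 counts in the wild-type and 48, 40 and 50 in the mutant libraries, so that the sums overlapped.

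IER5, whose protein binds the phosphatase PP2A and activates heat shock factor, was counted 643, 644 and 623 times in the wild-type libraries and 1018, 1024 and 1075 times in the mutant libraries. The libraries of each group lay close together and far from those of the other. Its level rose from 23.7 ± 0.916 to 38.8 ± 1.34 CPM, a log2 fold change of 0.72 (SE 0.052, 95% interval 0.61 to 0.82; edgeR, adjusted p = 1.03e-10). Leaving out each library in turn gave 0.69 to 0.75 on the log2 scale. Its relative IER5L had between 1 and 5 counts per library and was not tested.

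IER2, a growth factor inducible gene, was counted 225, 177 and 205 times in the wild-type libraries and 258, 189 and 277 times in the mutant libraries. The second mutant library lay within the wild-type range and the other 2 lay above it. The level was 7.50 ± 0.716 against 9.03 ± 1.76 CPM, and the log2 fold change of 0.26 did not pass the test (95% interval -0.01 to 0.54; edgeR, adjusted p = 0.0769). Without the second mutant library it was 0.41 and was called (edgeR, adjusted p = 3.54e-04), while without the third it was 0.15 (edgeR, adjusted p = 0.310). It was also called when every gene with a count was fitted (log2 0.26; edgeR, adjusted p = 0.0151). With the replicate numbers as a block IER2 was called too (log2 0.26; edgeR, adjusted p = 0.00523), though no label pairs the libraries. The second mutant library was also the lowest of its group for EGR1 and NR4A1, that is for 3 of the 5 tested members, but for 7 of 28 other tested early response genes and for 34.7% of all tested genes. The second wild-type library was likewise the lowest of its group for 3 of the 5 members. It was lowest for 8 of the 28 other genes and for 35.6% of all tested genes.

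IER3 (IEX-1), an apoptosis modulator, was counted 38, 30 and 38 times in the wild-type libraries and 31, 32 and 28 times in the mutant libraries. The groups overlapped through the second wild-type library. The level was 1.31 ± 0.140 against 1.13 ± 0.0729 CPM, and the log2 fold change of -0.21 did not pass the test (95% interval -0.63 to 0.21; edgeR, adjusted p = 0.360). The strand setting of the counts is not given in the sources used here, and GENCODE v29 places a gene on the opposite strand over exons of EGR3, NR4A1, IER2 and IER3, so reads of such partners may be among their counts.

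**Figure D2:**
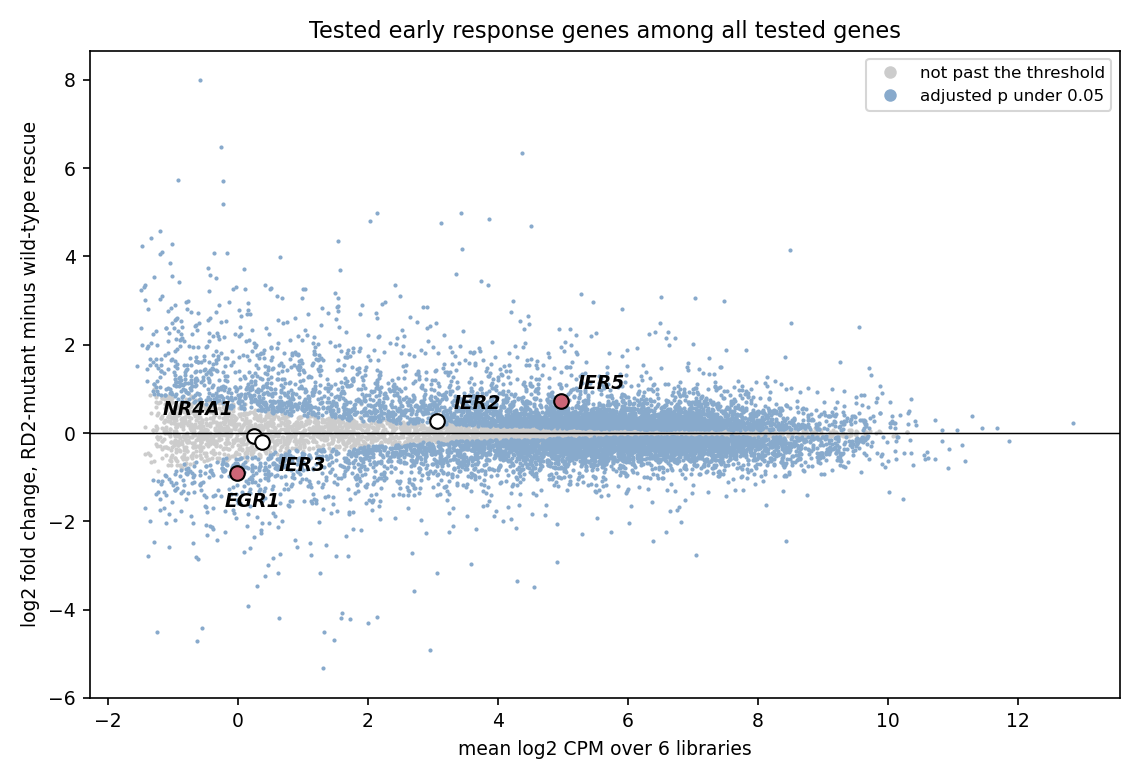
Mean log2 CPM over 6 libraries (horizontal axis) and log2 fold change of mutant minus wild-type rescue (vertical axis) for 12406 tested genes, with genes past the threshold in blue and others in grey. The 5 tested members are circled (filled where called): EGR1 (-0.91), NR4A1 and IER3 lie near 0 on the log2 CPM axis, and IER2 and IER5 (0.72) farther right.

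Levels between genes were compared as CPM per kilobase of the longest protein-coding GENCODE v29 transcript. In the wild-type rescue the order was IER5 (5.65 ± 0.219 CPM per kilobase), IER2 (2.56 ± 0.244), IER3 (0.970 ± 0.103), EGR1 (0.383 ± 0.0247) and NR4A1 (0.323 ± 0.0715). The ranges of EGR1 and NR4A1 overlapped there, and the ranks of the first 3 were apart from each other and from these. In the mutant rescue IER5 (9.28 ± 0.320), IER2 (3.08 ± 0.601) and IER3 (0.840 ± 0.0540) kept this order, and NR4A1 (0.309 ± 0.0562) stood above EGR1 (0.203 ± 0.0359) without overlap. The other 4 members were below 0.11 CPM per kilobase in every library. Transcript choice affects these values, since NR4A1 has annotated protein-coding transcripts from 521 to 3511 bases.

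The partners of the EGR and NR4A factors that were on the list of relatives differed in part. NAB2, a corepressor that binds EGR proteins, was counted 120, 88 and 101 times in the wild-type libraries and 179, 188 and 192 times in the mutant libraries. All mutant libraries were higher, at 6.97 ± 0.269 against 3.82 ± 0.514 CPM (log2 0.86, 95% interval 0.63 to 1.1; edgeR, adjusted p = 7.11e-07). NAB1, its homologue, rose 1.18-fold, from 30.1 ± 1.60 to 35.4 ± 0.574 CPM (log2 0.23; edgeR, adjusted p = 3.85e-04), a change that was not called against a minimum of 1.2-fold. The level of RXRB, a dimer partner of NR4A receptors, was 72.1 ± 1.5 against 70.0 ± 0.229 CPM and did not pass the test (log2 -0.04; edgeR, adjusted p = 0.307). RXRA was counted 4, 3 and 3 times in the wild-type libraries and 2, 0 and 0 times in the mutant libraries, RXRG had none, and the WT1 gene, whose zinc fingers recognise similar sites to those of EGR proteins, had 1 count in all. SP1, a factor that binds related GC-rich sites, fell 1.12-fold (log2 -0.16; edgeR, adjusted p = 2.19e-04).

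**Figure D3:**
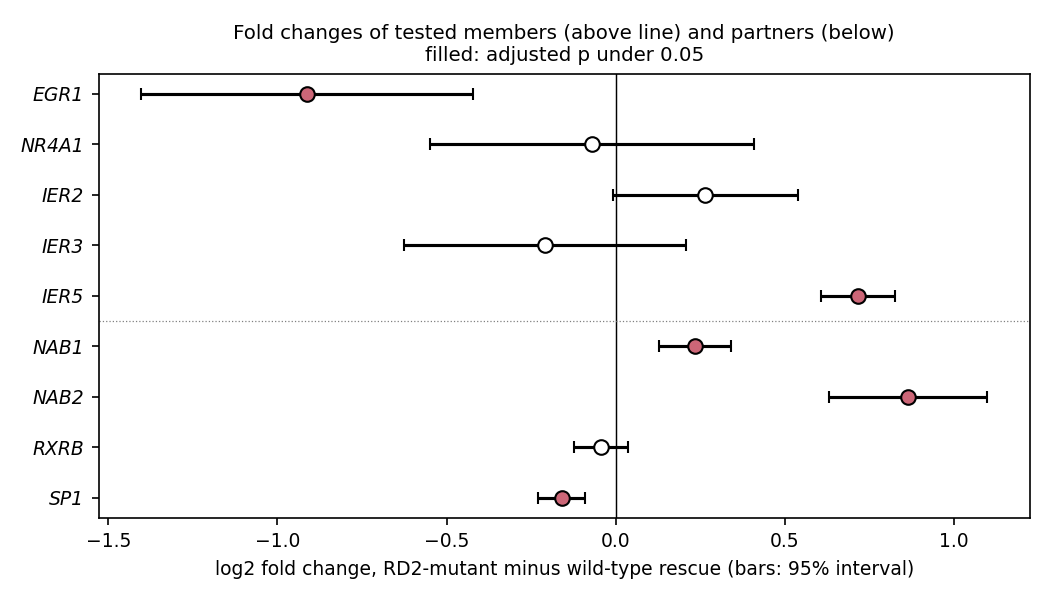
Log2 fold change of mutant minus wild-type rescue with 95% intervals for the 5 tested members (above the dotted line) and for NAB1, NAB2, RXRB and SP1 (below it), filled where the adjusted p was under 0.05. EGR1 lies to the left of 0, IER5 and NAB2 to the right, and the intervals of NR4A1, IER2 and IER3 include 0.

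Other early response genes rose more often than they fell. Of 34 on the list 28 were tested, of which 15 rose and 6 fell while 7 did not pass, with a median log2 fold change of 0.20 against 0.01 over all tested genes; the 75.0% called compares with 70.1% of all tested genes. The stress-responsive factor gene ATF3 rose 3.67-fold, from 42, 34 and 48 counts to 172, 152 and 127. CD69, an early activation antigen of lymphocytes, rose 3.47-fold and the AP-1 factor gene JUND 1.84-fold, while MYC fell 1.42-fold. Chosen after their values were seen, FOSB was the tested AP-1 gene called lower (0.730 ± 0.217 to 0.374 ± 0.101 CPM, log2 -0.96, edgeR adjusted p = 0.0130), and JUN rose 1.92-fold. FOSB was counted 26, 19 and 14 times in the wild-type and 8, 9 and 13 times in the mutant libraries. It passed the filter (minimum count 10) through the wild-type group, where it was higher, so its call depends on that selection. FOS, the prototype of the early genes and likewise chosen after its counts were seen, was too low to be tested, with 7, 2 and 10 counts in the wild-type libraries and 14, 8 and 11 in the mutant libraries.

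Of the factors that act on early gene promoters, 15 of 15 were tested. Of these 10 rose and 4 fell while 1 did not pass. The 93.3% called compares with 70.1% of all tested genes, and the median log2 fold change was 0.47. The calcium-responsive factor genes MEF2A and MEF2D rose 2.15-fold and 2.08-fold, and MKL1, an actin-regulated coactivator of serum response factor, rose 1.48-fold. MEF2B, of the same family and picked once its value was known, fell 2.15-fold at a low level (3.09 ± 0.600 to 1.43 ± 0.449 CPM), and the table also has a row for its readthrough with the neighbouring MEF2BNB, which may share its reads. ELK4, an ERK-responsive partner of serum response factor, fell 1.41-fold. Serum response factor itself, SRF, which was chosen after its value was seen, fell from 192 ± 4.31 to 146 ± 3.38 CPM (log2 -0.39). Any link between its level and the CArG boxes of EGR1 and EGR2 was not tested.

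Along the ERK cascade 18 genes were tested, of which 10 rose and 4 fell while 4 did not pass. The 77.8% called is near the 70.1% of all tested genes, and the median log2 fold change was 0.11. RASGRP2 and RASGRP1, exchange factors that load RAS proteins, rose 3.44-fold and 1.5-fold, SOS2, another exchange factor, rose 1.42-fold, and MAP2K1, the kinase that phosphorylates ERK, fell 1.23-fold. Of 11 tested inhibitors of the cascade 4 rose and 5 fell, while 2 did not pass. Here 81.8% were called, against the same 70.1%, with a median of 0.10. DUSP5 and DUSP2, nuclear phosphatases that act on ERK, fell 2.65-fold and 2.63-fold, the RAS pathway inhibitor gene SPRED2 fell 1.26-fold, and NF1, a RAS GTPase activator, rose 1.60-fold.

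On the calcium arm 20 calcineurin, NFAT and calcium entry genes were tested, of which 10 rose and 5 fell while 5 did not pass. Of the 20, 75.0% were called, with a median of 0.12. The transcription factor genes NFATC3 and NFAT5 rose 1.64-fold and 1.29-fold, STIM1, the calcium store sensor, rose 1.38-fold, and the channel gene ORAI2 rose 1.24-fold. Among the 5 that fell, chosen after their values were seen, were NFATC2 (2.11-fold) and the calcium release channel gene ITPR3 (1.73-fold). Of 18 genes at the antigen receptor itself 10 rose and 6 fell, while 2 did not pass (88.9% called; median 0.10). PRKCB, the kinase that links the receptor to downstream factors, rose 3.53-fold, and the adaptor gene BANK1, the co-receptor gene CD72 and the lipid kinase gene PIK3CD rose 2.25-fold, 2.05-fold and 1.93-fold. Among the 6 that fell, chosen after their values were seen, were the inhibitory phosphatase gene PTPN6 (3.54-fold) and the kinase gene LYN (1.52-fold). The shares called lay between 75.0% and 93.3% on these lists, against 70.1% of all tested genes, and no list was tested as a set.

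**Figure D4:**
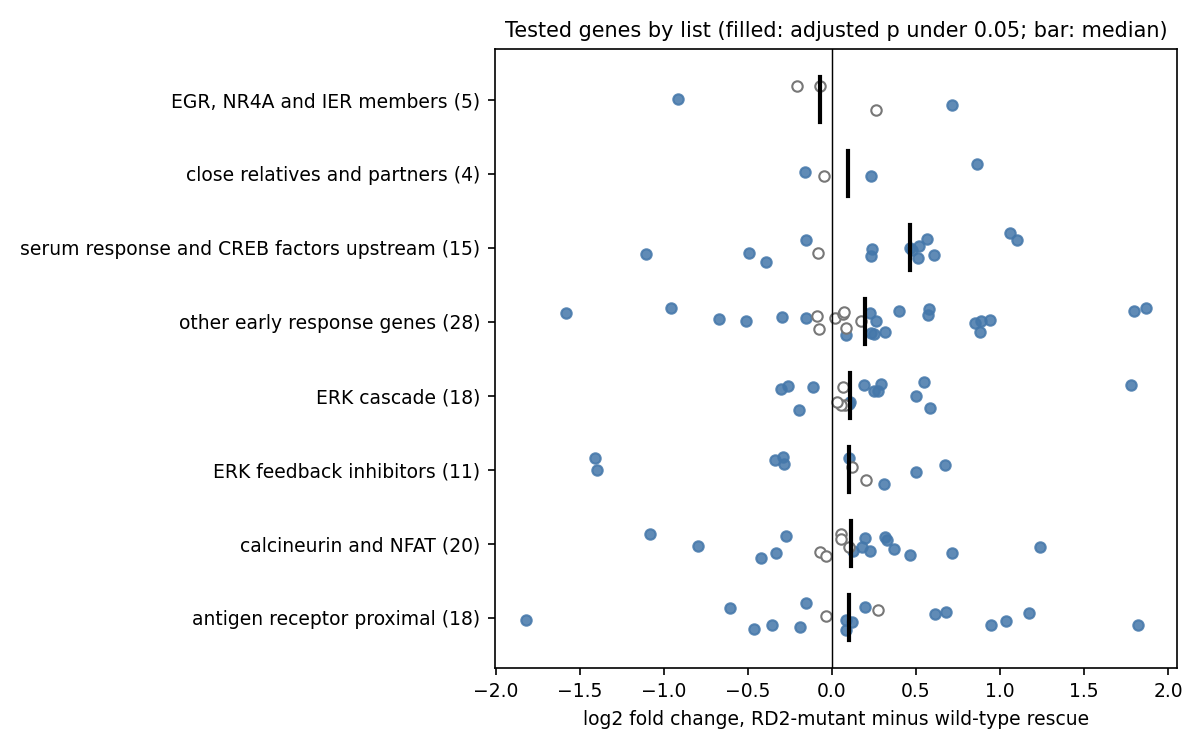
Log2 fold change of mutant minus wild-type rescue (horizontal axis) for every tested gene of each list, with filled points past the threshold, open points not past it and a bar at the median; the number tested is in parentheses. The medians of the upstream lists lie between 0.10 and 0.47, and the members' median is -0.07.

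For the tested member with the smallest p in each family, the 3 genes with the most similar profile were taken by the root mean square difference of log2 CPM over 6 libraries, each profile centred on its mean. For EGR1 these were MAGEA6 (difference 0.0749), ADCK1 (0.0788) and EDN1 (0.0815), with EDN1, the endothelin gene, also at a similar level (1.01 and 0.561 CPM in the wild-type and mutant rescue). MAGEA6 has near-identical copies that may share its reads. For IER5 they were FGFR1OP (0.0262), ZNF26 (0.0341) and ZNF821 (0.0353), and for NR4A1 they were ENGASE (0.0824), C9orf24 (0.0856) and the transcribed pseudogene CROCCP2 (0.0856), whose reads may be shared with its parent gene. With 6 libraries in 2 groups these likenesses mostly restate the size of the change between groups. FGFR1OP, for example, had a log2 fold change of 0.69, beside 0.72 for IER5.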

How the data were processed

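The authors deposited a table of unnormalised counts by gene symbol, with each library in its own column. The submitters' processing notes name build hg19 and the tools CASAVA 1.8.2, STAR and edgeR. The counter, annotation, strand setting and rule for multi-mapped reads were not given in the sources used here. Per the labels' protocols, Trizol RNA went into Illumina TruSeq RNA libraries. Libraries were grouped by their titles.

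Counts were analysed in R 4.3.3 with edgeR 4.0.16: filterByExpr at its defaults (minimum count 10), TMM scaling, a robust quasi-likelihood fit of the 6 libraries by group without covariates, glmQLFTest, and Benjamini-Hochberg adjustment over 12406 tested genes with a threshold of 0.05. Standard errors were taken as the log2 fold change over the root of F. The test was tried on simulated counts. Replicate pairs differed by more than counting noise (chi-square per degree of freedom 1.60 to 5.47 using genes whose 2 counts summed to 20 or more), so each library counted as 1 sample. Alternatives were RLE and library size scaling, DESeq2 1.42.0, no filter, at least 1 CPM in all libraries, glmTreat against 1.2-fold, a replicate block and each library left out in turn.

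The members and lists were chosen with earlier results of these data known. Named genes were the 9 members, BCL6, every gene on the list of relatives and partners, the 4 genes with the smallest p on each other list, and the 3 genes most similar in profile to the member with the smallest p in each family; others are said to be chosen after their values were seen. Transcript lengths and overlaps came from GENCODE v29 by symbol. Promoters came from RefSeq (GRCh38.p14), not the build of the counts; only the 250 upstream bases were used.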

Additional observations from a re-analysis of the deposited data

How the results depend on the processing

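Of 349 values recomputed under the alternatives, 324 kept their direction and their side of the threshold, or for counts stayed within 1.5 times. EGR1 kept its call in all 12 alternatives that held it (log2 -1.04 to -0.79, adjusted p 7.07e-04 to 0.0216 by edgeR or DESeq2) and IER5 in all 13 (0.69 to 0.75). Without a filter on low counts, 3 of 9 members were higher and 3 lower, beside 4554 higher and 4540 lower of 17426 genes fitted. EGR2, EGR3 and NR4A2 were then tested and called, EGR3 on wild-type reads alone. IER2 was called too (log2 0.26, edgeR adjusted p = 0.0151). Requiring at least 1 CPM in all libraries left 0 members lower, because EGR1 was not tested. No label says that the replicate numbers pair the libraries, and these values do not settle whether they do. Deviations of same-numbered libraries correlated at 0.14, 0.17 and -0.05, and 4 of 6 libraries correlated best with their own number. With the numbers as a replicate block, 9285 genes were called against 8702 and 2 members were higher, since IER2 was called (log2 0.26; edgeR, adjusted p = 0.00523). Leaving out 1 library gave 1 to 2 members higher, NR4A1 between -0.17 and 0.13 on the log2 scale, and 2 to 4 ERK cascade genes lower, the 2 without the second wild-type library. Against a minimum change of 1.2-fold (glmTreat), 4585 genes were called, 2383 higher and 2202 lower, by the construction of that test. Genes higher then numbered 1 among relatives and partners, 8 among factors that act on early gene promoters and 9 among other early response genes. They numbered 3 in the ERK cascade, 2 among its inhibitors, 5 for calcineurin and NFAT and 6 at the antigen receptor. Genes lower numbered 0 among relatives and partners, 3 among factors that act on early gene promoters and 4 among other early response genes. They numbered 0 in the ERK cascade, 3 among its inhibitors, 3 for calcineurin and NFAT and 4 at the antigen receptor. Depth limits the low members most: EGR2, EGR3, NR4A2 and NR4A3 rest on at most 26 counts per group.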
